A study of Mus musculus with 2 samples.

Results

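The genes for the protein components of the cytosolic ribosome were examined in mouse left ventricle. They were chosen by symbol: Rpl or Rps followed by a number, with the usual letter or paralog endings, together with Rplp0, Rplp1, Rplp2 and Rpsa, while ribosomal S6 kinases and pseudogene symbols were left out. The rule found 85 gene symbols (109 transcripts) among the 24542 symbols (36780 transcripts) of the deposited table, and 81 of the 85 had enough reads to be tested. Of the other 4, Rpl10l had 0 reads in all 6 libraries, and Rpl39l, Rpl32l and Rpl26 were close to the detection limit.

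The study measured total RNA in 2 groups of male C57BL/6 mice. The NRK-2 KO mice lack nicotinamide riboside kinase 2, the product of Nmrk2, which phosphorylates nicotinamide riboside on the way to NAD and is found mainly in striated muscle. The Control mice were their littermates. Both groups had the left anterior descending (LAD) coronary artery tied permanently near its origin, a model of myocardial infarction, and both were sampled after 7 days. Only remote left ventricular (LV) muscle was used, without the scar and the border zone, so no unoperated heart is part of the comparison. The sources used here do not say how the Nmrk2 allele was made, which cells lack it, how old the mice were or whether animals were pooled.

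The labels list 1 sample per genotype, whereas the table has 3 numbered libraries of each, named KO 1 to 3 and control 1 to 3 here. Nothing says that they came from separate animals. The p-values therefore reflect how these 6 libraries vary, and how much of that variation is technical and how much lies between animals is not known. The KO libraries held 26975513 to 33086384 counted reads and the control libraries 22377348 to 22831189. Nmrk2 itself was at 27.9, 0.252 and 0 CPM in KO 1, 2 and 3, against 15.1, 13.0 and 4.79 CPM in the controls (CPM, counts scaled to library size and a TMM factor). The library labelled KO 1 therefore goes against its label, and the main results are also given without it. Cardiomyocyte markers were abundant in every library, with 19043 to 32570 CPM summed over 6 genes in KO and 35888 to 60067 CPM in control. Of 4 atrial markers, 3 were high in the same 3 libraries: Myl7 was at 127, 1.15 and 0.219 CPM in KO and at 205, 162 and 0 CPM in control, Myl4 at 316, 6.24 and 2.52 CPM in KO and 204, 176 and 2.31 CPM in control, and Sln at 25.4, 0.364 and 0 CPM in KO and 25.7, 18.9 and 0 CPM in control. The other, Nppa, which stressed ventricle also makes, was at 2419, 2350 and 3022 CPM in KO and 442.5, 571.6 and 108.0 CPM in control. Erythroid markers summed to 39.7, 2.18 and 2.59 CPM in KO and to 460.8, 673.7 and 5.72 CPM in control, and adipocyte markers to 39.0, 67.2 and 0.219 CPM in KO and to 16.04, 12.2 and 184.1 CPM in control, so control 3 stood apart from controls 1 and 2 on both.

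A ribosome is built from ribosomal RNA and a large set of different proteins, nearly all of them encoded by genes of this set. The small subunit (Rps genes) decodes the mRNA, and the large subunit (Rpl genes) forms the peptide bond and carries a flexible stalk (Rplp0, Rplp1, Rplp2) that recruits the elongation factors. Cells need these proteins in matched amounts, and their mRNAs typically begin with a 5′ terminal oligopyrimidine (TOP) tract, a C followed by a run of pyrimidines at the cap, through which mTORC1 sets how strongly they are translated. A few members have a paralog used in particular tissues. The best known in the heart is Rpl3l, a paralog of Rpl3 that is made almost only in cardiac and skeletal muscle. RPL3, the protein that Rpl3l can replace, lies near the peptidyl transferase centre, and mice without Rpl3l carry more RPL3 in their heart ribosomes.

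The coding sequences of this pair are shown first because the largest difference among the members concerns it, and because reads can be assigned to either gene only where the pair differs. The stretch below is the first 90 coding bases of each, from the mm10 genome with GENCODE M21 models (Rpl3l on chromosome 17, Rpl3 on chromosome 15), and the capitals mark the 21 bases that differ.
Rpl3l: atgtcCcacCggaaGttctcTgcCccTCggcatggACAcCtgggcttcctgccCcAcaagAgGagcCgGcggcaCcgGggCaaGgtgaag
Rpl3: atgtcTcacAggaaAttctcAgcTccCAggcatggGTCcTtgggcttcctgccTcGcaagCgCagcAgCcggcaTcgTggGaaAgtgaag
Over the whole coding region (1224 bases in Rpl3l, 1212 in Rpl3, stop codon included) the aligned bases were 74.4% identical, and the longest identical run was 22 bases. A read of usual length from the coding region of either gene would thus span differences.

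Start regions of 4 members are shown next because they show the pyrimidine tract in the members that hold it and the window of Rpl3l, which does not. Each window runs from 60 bases before the annotated start to 20 bases from it onward (RefSeq, GRCm38.p6, the same assembly as mm10), on the strand of the gene, and capitals mark a C followed by at least 7 bases that are C or T.
Rpl3l (chr17:24727766-24727845, plus strand): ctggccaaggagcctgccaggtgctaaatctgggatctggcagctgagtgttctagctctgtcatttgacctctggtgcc
Rps6 (chr4:86857348-86857427, minus strand): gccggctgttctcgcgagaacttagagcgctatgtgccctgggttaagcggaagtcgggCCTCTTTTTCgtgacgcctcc
Rpl28 (chr7:4792905-4792984, plus strand): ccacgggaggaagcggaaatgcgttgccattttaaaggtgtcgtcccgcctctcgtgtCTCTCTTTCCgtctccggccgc
Rplp2 (chr7:141447591-141447670, plus strand): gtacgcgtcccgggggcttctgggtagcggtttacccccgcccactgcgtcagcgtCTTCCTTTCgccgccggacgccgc
The windows of Rps6, Rpl28 and Rplp2 each hold 1 such tract at or beside the start, and that of Rpl3l holds none.

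Of the 85 members, 64 had start windows in the RefSeq table. Within 25 bases on either side of the start, 34 of the 64 (53.1%) held a tract of this form on the transcribed strand, against 17.8% of 26961 other genes, and on the opposite strand 7.81% of members and 20.01% of other genes did. The letters CTCTTTC, which can lie within such a tract, were present on the transcribed strand of the full 300-base window in 13 members (20.3%) and in 4.57% of other genes, and on the opposite strand in 7.81% and 4.90%. CCGGAAG, the core recognised by ETS-family factors, was present on either strand in 26 members (40.6%), against 9.86% of other genes. These are matches of letters and not sites of binding.

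Rpl3l was the member with the largest difference between genotypes and the only one to pass the test. It stood at 18.0, 8.48 and 18.8 CPM in KO 1, 2 and 3, against 67.2, 70.0 and 39.2 CPM in the control libraries. Every KO library lay below every control library, and KO 2 was the lowest of all. The means were 15.1 ± 5.75 CPM in KO and 58.8 ± 17.0 CPM in control (SD, n = 3 libraries each), and Rpl3l fell by 1.96 on the log2 scale (SE 0.36, adjusted p = 0.0406 by edgeR's quasi-likelihood test, Benjamini-Hochberg over 14466 genes). The call rested on few libraries. Without KO 1 the log2 fold change was -2.11 and the adjusted p of edgeR's test 0.117, and the call was also lost without KO 2 (0.0957), KO 3 (0.0974), control 1 (0.120) or control 2 (0.164), and held without control 3 (0.0171). It was lost, too, when the transcript with the most reads stood for the gene (0.0834).

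Rpl3, the general form, had the highest fold change of all tested members. It was at 436.4, 427.6 and 349.4 CPM in the KO libraries, against 287.2, 275.9 and 336.9 CPM in the controls. The groups did not overlap, although KO 3 and control 3 were close. The means were 404.5 ± 47.9 CPM in KO and 300.0 ± 32.4 CPM in control (SD, n = 3 libraries each). The log2 fold change of 0.43 (SE 0.15) did not pass edgeR's test (adjusted p = 0.138), but passed with DESeq2 (adjusted p = 0.0485) and, in edgeR, without control 3 (adjusted p = 0.0473). Without KO 1 it was 0.37 (adjusted p = 0.330).

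The pair was also set against each other per length. Rpl3l made up 3.96%, 2.03% and 5.11% of the reads per kilobase of both genes in KO 1, 2 and 3, against 19.0%, 20.2% and 10.4% in the control libraries. All KO shares lay below all control shares, and the controls themselves differed widely. Of the reads themselves, the highest KO share, in KO 3, had a 95% Wilson interval of 4.69% to 5.55%, and the lowest control share, in control 3, one of 9.82% to 11.1%. These intervals cover counting error only and not the spread between libraries. Means were 3.70 ± 1.56% in KO and 16.5 ± 5.32% in control (SD, n = 3 libraries each), a difference of -12.8 percentage points, and the two-sided exact permutation p was 0.1, the smallest that 3 libraries against 3 can give. Without KO 1 the difference was -13.0 percentage points. Leaving out any library kept it between -15.9 and -11.0.

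**Figure D1:**
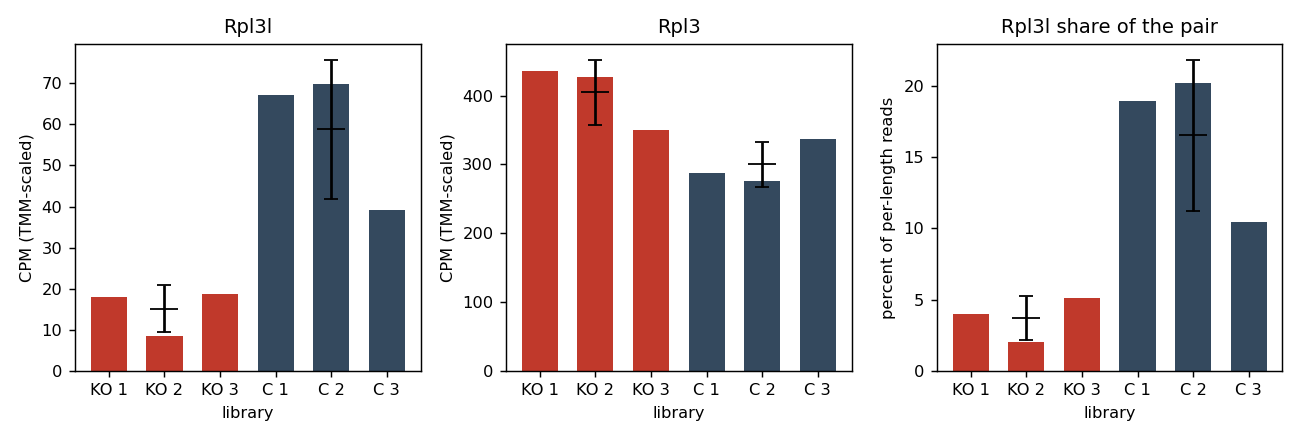
Levels of Rpl3l and Rpl3 in CPM and the percent of their joint per-length reads that belong to Rpl3l, 1 bar per library, with KO libraries in red and control libraries (C) in blue, and the mean ± SD of each group in black. Rpl3l lies at 8.48 to 18.8 CPM in KO and 39.2 to 70.0 CPM in control, while Rpl3 lies at 349.4 to 436.4 CPM in KO and 275.9 to 336.9 CPM in control.

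Because Rpl3l belongs to muscle cells, its level was set beside markers of the cell types in the tissue. In bulk tissue, fewer cells of a type and less RNA per cell cannot be told apart. All 6 cardiomyocyte markers (Myh6, Tnnt2, Actc1, Myl2, Ryr2, Pln) were lower on average in KO, with a median log2 fold change of -0.84. None passed the test, where 1.09% of all tested genes fell. Of the 6 markers, 4 (66.7%) had every KO library below every control library, beside 14.5% of all tested genes. Fibroblast markers had a median of 1.24, and 5 of 5 were higher. Of these, 1 (Postn) passed the test, where 2.61% of all tested genes rose. Their log2 fold changes were uneven, at 2.84 for Postn, 1.41 for Tcf21, 1.24 for Col1a1, 0.25 for Pdgfra and 0.12 for Dcn. The groups overlapped for Dcn, at 1324 to 1783 CPM in KO and 1166 to 1753 CPM in control. Summed, the fibroblast markers were at 11148 to 13349 CPM in KO and 2424 to 5741 CPM in control. Macrophage markers had a median of 0.75 (4 of 4 higher, none past the test) and summed to 1124 to 1872 CPM in KO and 450.3 to 1428 CPM in control. Relative to the mean log2 CPM of the 6 cardiomyocyte markers, Rpl3l stood at -7.87, -8.28 and -7.86 in KO 1, 2 and 3, against -6.85, -6.75 and -6.88 in the controls. The groups did not overlap on this relative scale either, and the difference was -1.18 log2 units (two-sided exact permutation p = 0.1, the smallest possible with 3 libraries against 3). Without KO 1 the difference was -1.24, and the medians of the marker lists were -0.94 for cardiomyocytes, 1.19 for fibroblasts and 0.80 for macrophages.

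The genes whose log2 CPM followed Rpl3l most closely over the 6 libraries, among 9734 genes of at least 10 CPM outside the set, were Rxrg, a retinoid X receptor (Pearson r = 0.9998), As3mt, an arsenite methyltransferase (0.9991), Cox7a1, the muscle form of a cytochrome c oxidase subunit (0.9989), Eci1, a mitochondrial enoyl-CoA isomerase (0.9985), and Dhrs7c, a reductase of the sarcoplasmic reticulum (0.9984). Rxrg was at 31.7, 19.5 and 31.9 CPM in KO and 72.5, 75.1 and 50.6 CPM in control, in the same order of libraries as Rpl3l. These r values describe 6 libraries in 2 groups, and were picked as the highest of many. Genes measured in the same library share the depth and cell makeup of that library.

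The rest of the family differed little between genotypes. Of 81 tested members, 0 rose and 1 fell, where 2.61% and 1.09% of all 14466 tested genes rose and fell (3.70% in either direction). Before adjustment, 5 members had a p under 0.05 in edgeR (Rpl3l, Rpl3, Rps2, Rpl36 and Rpl10). That is 6.17% of the set, beside 25.9% of all genes. DESeq2 called 2 members (Rpl3 and Rpl3l), where 1116 of all 14466 tested genes rose and 1329 fell. Without KO 1, 0 of 81 members rose and 0 fell in edgeR, where 78 of 14735 tested genes rose and 10 fell. Without control 3, 1719 of 14775 tested genes rose and 1909 fell. Among the 82 members tested there, 1 rose (Rpl3) and 2 fell (Rpl3l and Rpl36). The median log2 fold change of the members was 0.03 (0.0076 without KO 1), with the middle 50% between -0.04 and 0.11, while over all tested genes the median was 0.01 and the middle 50% ran from -0.31 to 0.33. Fold changes within 0.25 of 0 on the log2 scale were found for 72 of the 81 members (88.9%) and for 41.3% of all genes. The members are also more deeply counted: their median SE was 0.12, against 0.21 over all genes.

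**Figure D2:**
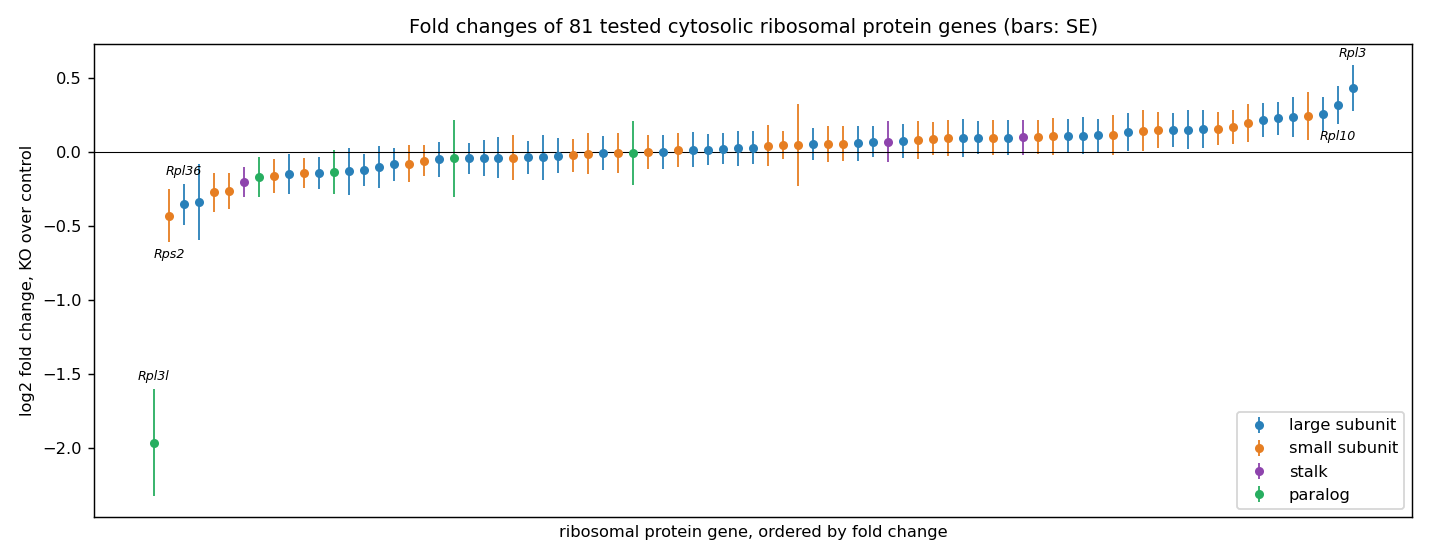
Log2 fold change, KO over control, of the 81 tested ribosomal protein genes in rising order, with bars for the SE of edgeR's estimate and colours for subunit, stalk and paralogs, and names at the genes with the lowest and highest values that the text describes. Rpl3l at -1.96 stands apart from the next lowest, Rps2 at -0.43, and Rpl3 at 0.43 is the highest.

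**Figure D3:**
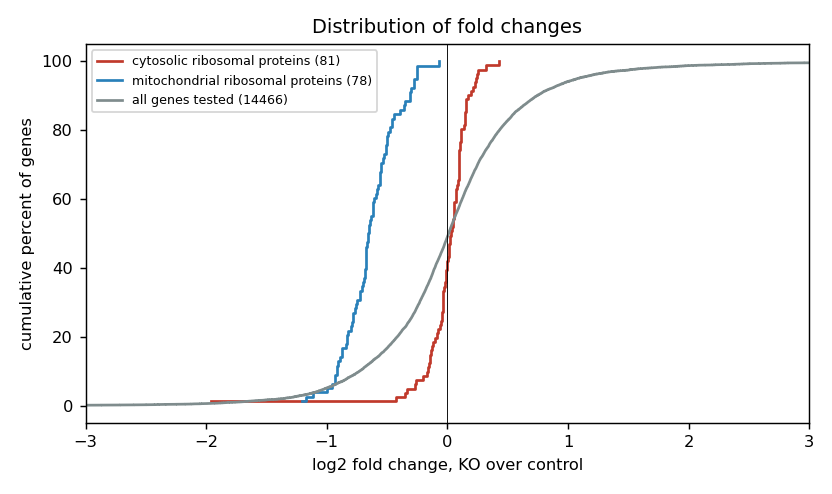
Cumulative percent of genes by log2 fold change, KO over control, for 81 cytosolic and 78 mitochondrial ribosomal protein genes and for all 14466 tested genes (axis cut at -3 and 3). The cytosolic genes rise steeply around their median of 0.03, all mitochondrial genes lie below 0 with a median of -0.66, and the curve of all genes is broader.

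Every KO library lay above every control library for 11 tested members (13.6%), beside 16.4% of all genes, and below for 6 (7.41%), beside 14.5% of all genes. Among the 11 were Rpl3, Rpl10, Rpl39, Rpl31, Rps27a and Rpl7, and the 6 were Rpl3l, Rps29, Rplp2, Rps13, Rpl30 and Rpl27. Both shares are below those of all genes. By weight, members took 2.04%, 2.13% and 1.83% of the counted reads in KO 1, 2 and 3, against 1.70%, 1.74% and 2.04% in the controls. Of the summed FPKM (the deposited values scaled to transcript length and library size) they took 6.16%, 6.75% and 5.71% in KO, against 4.79%, 4.88% and 6.09% in control. Control 3 overlapped the KO libraries on both measures.

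The ribosome of mitochondria, encoded by another gene set (Mrpl and Mrps), did not show this flat profile. All 78 of its genes were lower on average in KO, with a median log2 fold change of -0.66. Of these, 39 (50.0%) had every KO library below every control library, beside 14.5% of all genes. In edgeR 0 passed the test, where 3.70% of all genes did, and 56 (71.8%) were at an unadjusted p under 0.05, beside 25.9% of all genes. Without KO 1 all 78 were again lower and the median was -0.75. Relative to each gene's mean over the 6 libraries, the median mitochondrial ribosomal gene stood at -0.11, -0.58 and -0.24 log2 units in KO and at 0.49, 0.53 and -0.09 in control, so that control 3 lay within the KO range. The median cytosolic member stood at 0.08, 0.05 and -0.07 in KO and at -0.03, -0.01 and -0.01 in control. Non-member genes with transcripts under 1000 bases, a length class that holds most ribosomal protein mRNAs, had a median log2 fold change of -0.20 over 1019 tested. Of these, 15 rose and 7 fell, where 2.61% and 1.09% of all tested genes did. Every KO library lay below every control library for 21.8% of them, beside 14.5% of all genes, and above for 9.81%, beside 16.4%.

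**Figure D4:**
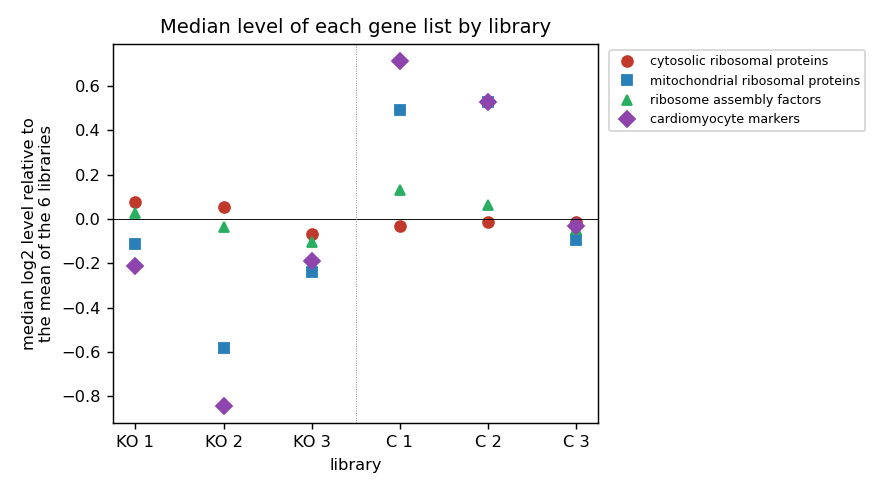
Median log2 level of each gene list in each library, relative to each gene's mean over the 6 libraries, with KO libraries left of the dotted line and control libraries (C) right of it. Cytosolic ribosomal protein genes stay between -0.07 and 0.08 in all libraries, while cardiomyocyte markers run from -0.84 in KO 2 to 0.71 in control 1.

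Small subunit. Of 31 tested genes, 0 rose and 0 fell, where 2.61% and 1.09% of all tested genes did. The median log2 fold change of the 31 was 0.05. The lowest was Rps2 (uS5), which sits at the mRNA entry side of the small subunit and was also the most abundant member per length (628 FPKM averaged over the 6 libraries). Rps2 was at 645.8, 510.2 and 487.4 CPM in KO and at 763.4, 815.6 and 635.2 CPM in control, with KO 1 just above control 3, and its log2 fold change of -0.43 (SE 0.18) did not pass edgeR's test (adjusted p = 0.187). Rps2 lies on chromosome 17 at 24720063 to 24721927 (mm10) and the deposited Rpl3l locus at 24727829 to 24736149, so the members with the lowest fold changes are close neighbours.

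At the other end was Rps12, with 268.3, 296.6 and 232.0 CPM in KO and 217.2, 196.0 and 259.9 CPM in control (log2 fold change 0.24, edgeR's adjusted p = 0.380). Its groups overlapped, since control 3 exceeded KO 3. Rps6, the protein that S6 kinases phosphorylate downstream of mTORC1, was at 367.6, 374.5 and 324.7 CPM in KO and 314.9, 337.9 and 355.1 CPM in control (log2 fold change 0.08, adjusted p = 0.726). Rpsa, which also serves as a laminin receptor, was at 620.0, 538.5 and 480.4 CPM in KO and 533.7, 597.8 and 550.5 CPM in control (log2 fold change -0.04, adjusted p = 0.903). In both genes the libraries of the 2 genotypes overlapped.

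Large subunit and stalk. Of 42 tested large subunit genes other than the paralogs, 0 rose and 0 fell, where 2.61% and 1.09% of all tested genes did. The median log2 fold change of the 42 was 0.03. Rpl10 (uL16), an X-linked gene whose protein joins the large subunit late in its assembly, was at 397.2, 423.6 and 395.2 CPM in KO and at 298.5, 323.9 and 354.0 CPM in control. All KO libraries were higher, but the log2 fold change of 0.32 (SE 0.13) did not pass (edgeR's adjusted p = 0.180). Rpl39, a small protein of the nascent peptide exit tunnel, was at 115.4, 132.5 and 136.2 CPM in KO and at 101.3, 107.0 and 113.6 CPM in control (log2 fold change 0.26, adjusted p = 0.221). Rpl13a, which in human cells is also part of an interferon-gamma-dependent complex that silences translation, was at 412.4, 431.1 and 357.2 CPM in KO and at 334.0, 324.3 and 359.5 CPM in control (log2 fold change 0.24, adjusted p = 0.308). For Rpl13a the groups overlapped at KO 3 and control 3.

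Rpl36 was among the lowest, at 126.2, 106.2 and 105.2 CPM in KO and at 159.1, 146.5 and 125.9 CPM in control (log2 fold change -0.35, SE 0.14, edgeR's adjusted p = 0.169), with KO 1 and control 3 nearly equal. Without control 3 it was the other member called as lower. The stalk genes Rplp0 and Rplp1 had log2 fold changes of 0.07 and 0.10, at 837.8, 797.5 and 737.5 CPM in KO and 779.7, 765.2 and 717.6 CPM in control for Rplp0. Rplp2, which forms dimers with Rplp1 on the stalk, was at 139.1, 135.2 and 129.7 CPM in KO, against 157.9, 156.6 and 151.2 CPM in control. All KO libraries were lower for Rplp2, but its log2 fold change of -0.20 did not pass (adjusted p = 0.259), so an unequal change within the stalk was not shown.

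Among the other paralogs of the set there was nothing like the difference in Rpl3l. Rpl22l1, the paralog of Rpl22, was at 26.4, 25.5 and 21.7 CPM in KO and 17.3, 29.3 and 27.3 CPM in control (log2 fold change -0.01). Rpl7l1, which acts in large subunit assembly, had a log2 fold change of -0.17, Rps27l, a p53-responsive paralog of Rps27, one of -0.13, and Rps4l one of -0.04. None of these 4 passed edgeR's test (adjusted p from 0.468 to 0.987), where 3.70% of all tested genes did. Rpl10l, the testis paralog of Rpl10, had 0 reads in each of the 6 libraries, which allows up to 3 reads in each, and Rpl39l, known from testis, had 6 and 3 reads in KO 1 and control 1 and 0 in the other libraries.

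Levels among the core members, compared per length, were high. Over the 76 tested members other than paralogs the median was 299 FPKM, and 71 exceeded 100 FPKM. After Rps2 came Rpl7 (569 FPKM), Rplp1 (561), Rplp0 (560) and Rpl23a (529), which differed from each other by less than the range between libraries of either gene. Among all 81 tested members, paralogs included, the lowest were Rpl34 at 9.31, Rps4l at 13.3, Rps16 at 21.2, Rpl7l1 at 23.4 and Rpl3l at 25.8 FPKM. The other core genes under 100 FPKM were Rps15a at 35.1, Rps20 at 58.1 and Rpl22 at 70.8 FPKM. Rps15a and Rps20 averaged 182 and 202 CPM, and their deposited transcripts are 5134 and 3446 bases long. Low values of core genes such as Rpl34, Rps16 and Rpl26 are uncertain as levels. The genome holds near-identical processed copies of many ribosomal protein genes, and the sources do not say how shared reads were assigned. Whether copies took reads from Rps16 or Rpl26 was not tested. For Rpl34 the copy is in the table: Rpl34-ps1 was at 99.3, 109.0 and 91.0 CPM in KO and at 94.6, 87.4 and 90.6 CPM in control, whereas Rpl34 was at 4.94, 5.07 and 4.20 CPM in KO and 4.86, 7.52 and 5.60 CPM in control. With both added, the log2 ratio of the mean CPM was 0.11, in place of -0.34 for Rpl34 alone.

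Several members come in more than 1 transcript. Of 15 such members, 9 had at least 2 transcripts that each held 5% or more of the gene's per-length reads. Transcript usage was tested with edgeR's diffSpliceDGE, chosen after the data had been seen. None of the 38 member transcripts tested passed, and 0 were at an unadjusted p under 0.05, where 0.534% of 9543 transcripts passed in all. Rps24 had the largest separation of shares. This small subunit protein, which is mutated in some patients with Diamond-Blackfan anaemia, is made from mRNAs that differ in short exons at the 3′ end, so the proteins differ in their last residues. The coding ends of its 3 transcripts are shown because the shares refer to them, from the mm10 genome with GENCODE M21 models (chromosome 14, plus strand). Capitals mark what follows the last exon that all 3 share in coding sequence, stop codon included.
Rps24 variant 1: gccaatgttggtgctggcaaaaagTGA
Rps24 variant 2: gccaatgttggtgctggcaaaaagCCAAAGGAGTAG
Rps24 variant 3: gccaatgttggtgctggcaaaaagAAATGA

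Variant 1 includes a 20-base exon (chr14:24495430-24495449), variant 3 includes that exon and an 18-base exon before it (chr14:24494052-24494069), and variant 2 skips both. The open reading frames hold 130, 133 and 131 codons in variants 1, 2 and 3. Variant 1 held 30.0%, 33.7% and 32.8% of the Rps24 reads per kilobase in KO 1, 2 and 3, against 18.2%, 20.97% and 19.2% in the controls. The KO libraries were all higher, and the shares averaged 32.2 ± 1.94% in KO and 19.5 ± 1.39% in control (SD, n = 3 libraries each). The two-sided exact permutation p was 0.1, the smallest possible, and the usage test gave an unadjusted p of 0.0695 and an adjusted p of 0.99996. Without KO 1 the variant 1 shares averaged 33.2% in KO and 19.5% in control, and the unadjusted p of the usage test was 0.117.

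Variant 3 held 44.0%, 29.5% and 46.3% in KO and 71.9%, 62.4% and 46.5% in control, with KO 3 and control 3 almost equal. Variant 2 held 26.0%, 36.8% and 20.96% in KO and 9.85%, 16.6% and 34.2% in control, and its groups overlapped. The gene as a whole was level, at 394.9, 380.1 and 380.9 CPM in KO and 366.3, 355.2 and 390.3 CPM in control (log2 fold change 0.06, edgeR's adjusted p = 0.802). Counting reads on exons this short depends on how the authors divided reads between transcripts, which the sources do not say.

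**Figure D5:**
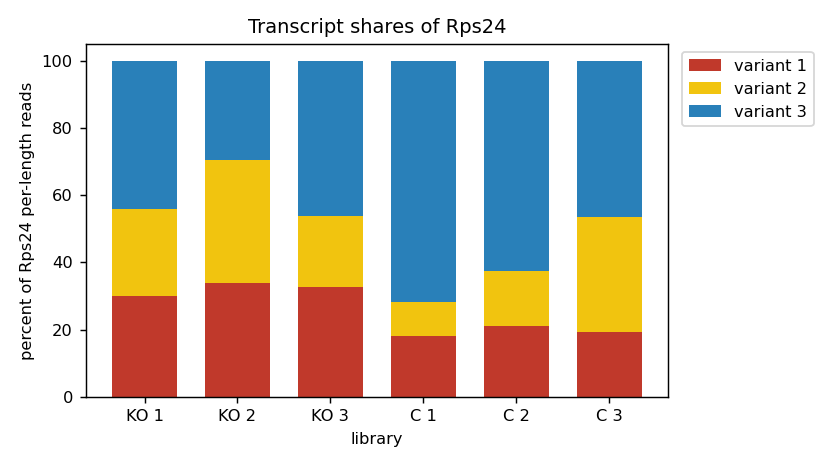
Percent of the per-length reads of Rps24 that belong to each of its 3 transcripts, 1 bar per library, with KO libraries left of the control libraries (C). Variant 1 takes 30.0% to 33.7% in KO and 18.2% to 20.97% in control.

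In the other members with several transcripts the shares of the genotypes overlapped or involved rare transcripts. The main transcript of Rpl35a held 92.8%, 71.4% and 83.7% in KO and 94.0%, 94.7% and 66.9% in control, a spread within each genotype that exceeded the difference between them. In Rpl22l1 the share of the transcript with the larger overall share ranged from 38.8% to 70.1% in KO and from 27.5% to 74.7% in control. The main transcript of Rpl19 held 92.7% to 95.7% in KO and 92.1% to 97.9% in control, that of Rpl29 79.6% to 82.4% in KO and 70.6% to 85.6% in control, that of Rpl30 71.1% to 76.1% in KO and 66.7% to 73.0% in control, and that of Rps27a 90.2% to 94.0% in KO and 91.7% to 93.6% in control. Rpl38, with 3 transcripts, was steady: its most abundant one held 63.2% to 64.97% in KO and 62.6% to 65.6% in control. The shorter Rpl3l transcript, which lacks the 5′ part of the gene, held 2.51%, 19.9% and 3.81% in KO and 2.97%, 2.71% and 3.39% in control, so that KO 2, the library with the fewest Rpl3l reads, stood apart.

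Genes that act with the ribosomal proteins were taken from lists of the pathway. Over all 14466 tested genes 3.70% passed in either direction, so 0 calls in lists this short says little about them. Ribosomal proteins with symbols outside the rule had 0 calls of 5 tested: Fau, made as a fusion of a ubiquitin-like protein with a small subunit protein, had a log2 fold change of 0.10, and Rack1, a scaffold on the small subunit, one of 0.18. For RNA polymerase I and its factors, which make ribosomal RNA, 0 of 16 passed and the median was -0.03. Every KO library was below every control library for 3 of the 16 (18.8%), beside 14.5% of all genes. It was above for 1 (6.25%), beside 16.4%. The 3 with the largest fold changes were the largest catalytic subunits and Rrn3. Polr1a was at 61.5, 57.5 and 65.7 CPM in KO and 95.4, 82.5 and 79.9 CPM in control (log2 fold change -0.48, edgeR's adjusted p = 0.0705), and Polr1b at 19.3, 18.9 and 18.8 CPM in KO and 27.03, 27.6 and 24.3 CPM in control (-0.47, adjusted p = 0.0690). Rrn3, which brings the polymerase to the promoter, was at 94.3, 77.5 and 84.5 CPM in KO and 132.1, 131.1 and 95.5 CPM in control (adjusted p = 0.122). Of 58 ribosome assembly factors 0 passed, with a median of -0.11, among them Heatr3, an importer of Rpl5, at -0.49 (adjusted p = 0.0949).

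Other mRNAs of the TOP class, mostly translation factors, gave 0 calls of 27, where 3.70% of all tested genes passed, and a median of 0.10. Every KO library lay above every control library for 6 of the 27 (22.2%) and below for 2 (7.41%). Over all genes these shares were 16.4% and 14.5%. The elongation factor Eef1a1 was at 3615, 4272 and 3578 CPM in KO and 1703, 2064 and 2757 CPM in control, all KO libraries being higher (log2 fold change 0.81, edgeR's adjusted p = 0.0960). Its muscle and neuron paralog Eef1a2 had a fold change of the opposite sign, with 518.5, 347.0 and 567.4 CPM in KO and 1054, 900.2 and 514.9 CPM in control (-0.79, adjusted p = 0.171), and its groups overlapped through control 3. Vim, the intermediate filament of fibroblasts and other mesenchymal cells, had a log2 fold change of 0.82 (adjusted p = 0.0605) and Pabpc1, the poly(A)-binding protein, one of 0.73 (adjusted p = 0.197). Ybx1, an mRNA-binding protein, was lower in every KO library (-0.52, adjusted p = 0.114). The levels of fibroblast and macrophage markers are given above, and their part in these differences was not tested.

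Regulators that act on TOP mRNAs and on mTORC1 gave 0 calls of 27, where 3.70% of all tested genes passed. Their median log2 fold change was -0.12. Every KO library lay above every control library for 2 of the 27 (7.41%) and below for 5 (18.5%), beside 16.4% and 14.5% of all genes. Eif4e, the cap-binding protein, was at 102.8, 87.1 and 109.0 CPM in KO and 163.4, 178.4 and 121.4 CPM in control (-0.63, edgeR's adjusted p = 0.0905). Sesn1, a leucine sensor that restrains mTORC1, was also lower in every KO library (-0.56, adjusted p = 0.0983), and Myc, which drives ribosome production, was higher in every KO library at low abundance (0.67, adjusted p = 0.222). Cnbp, a zinc finger protein that binds TOP mRNAs, had the largest fold change of this list, at -1.38, but control 1 alone, at 302.8 CPM, exceeded the other 5 libraries, which ran from 49.9 to 63.9 CPM in KO and from 56.2 to 70.7 CPM in controls 2 and 3. Without KO 1 the median log2 fold changes were -0.12 for RNA polymerase I and its factors, -0.19 for assembly factors, 0.13 for the other TOP mRNAs and -0.12 for the regulators.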

How the data were processed

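The authors deposited whole-number read counts and FPKM values per RefSeq transcript, per the file headers. Per the labels' protocols, the library kit was TruSeq Stranded Total RNA. The submitters' processing notes name HISAT2, Bowtie2 and mm10, with neither role nor version. How reads were counted, with regard to strand and to reads shared by several features, was not given in the sources used here. Counts were summed per symbol, filtered with filterByExpr, scaled by TMM and tested KO over Control with the quasi-likelihood test of edgeR 4.0.16 (R 4.3.3, no block), adjusting over all 14466 genes (Benjamini-Hochberg, threshold 0.05). Intervals and the limit of 3 reads for a count of 0 cover counting error only.

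Named genes were fixed by rule: Rpl3l, Rpl3, all paralogs, the stalk genes, Rpsa, Rps6, called members, the 5 highest and lowest by fold change and by FPKM, members with several transcripts, up to 4 genes per pathway list, and the 5 genes most like Rpl3l. Members named for not overlapping between groups, Rpl26 and the marker genes lie outside it and were chosen after their values were seen. Some genes that the rule or the marker lists cover are not reported here. Members and lists were chosen with earlier results of these data known. Alternatives were other scalings and filters, DESeq2 1.42.0, limma 3.58.1 on log2(FPKM + 1), single transcripts, a library-number block and leaving out each library.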

Additional observations from a re-analysis of the deposited data

How the results depend on the processing

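Rpl3l was lower in KO under every alternative run, with a log2 fold change from -2.18 to -1.67. Its call was lost with a replicate block (-1.99, adjusted p = 0.164 by edgeR, 0 members called as lower) and with the transcript of most reads in place of the gene sum (-2.00, adjusted p = 0.0834, 0 members called as lower). When a library was left out, the log2 fold change of Rpl3l ran from -2.18 to -1.67, that of Rpl3 from 0.37 to 0.52, members called as lower from 0 to 2 and members called as higher from 0 to 1. DESeq2 called 1 member as higher, Rpl3 (log2 fold change 0.41). The median of the members was 0.13 with library totals only and 0.13 with limma on log2(FPKM + 1), where the median of all genes was 0.11 and 0.09. Over all genes, 378 rose and 157 fell. The numbers were 1116 and 1329 with DESeq2, 6 and 0 with the replicate block, 137 and 35 with single transcripts, 3 to 1719 and 0 to 1909 with a library left out, and 277 fell with limma. Library numbers did not pair the samples: the correlation of deviations from the group means was 0.31, -0.33 and -0.35 for numbers 1, 2 and 3.

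Small fold changes changed sign without a call. With library totals only and with limma, Rpl22l1 (-0.0073) was at 0.0857 and 0.124, Rps4l (-0.0438) at 0.0826 and 0.102, Rpsa (-0.0374) at 0.0643 and 0.0584, Rpl29 (-0.0251) at 0.0801 and 0.0762, and Rpl38 (-0.0422) at 0.0639 and 0.0631. Rpl19 (0.0144) was at -0.0063 with DESeq2 and with RLE size factors. With the replicate block Rpl22l1 was at 0.0217 and Rps4l at 0.0037, and without a filter Rpl22l1 was at 0.0029. With the transcript of most reads Rpl29 was at 0.0075 and Rps24 (0.0562) at -0.514. For Rps24 that transcript is variant 3, with a mean share of 39.9% in KO and 60.3% in control, so the value is not one of the whole gene. With a library left out, Rpl19 ran from -0.0239 to 0.0429, Rpl22l1 from -0.207 to 0.136, Rpl29 from -0.0965 to 0.0122, Rpl38 from -0.0856 to 0.0068, Rps16 (0.0480 with all libraries) from -0.135 to 0.266, Rps4l from -0.279 to 0.185 and Rpsa from -0.138 to 0.0368. For genes other than Rps24 the cause was not tested. Rpl10l, Rpl39l, Rpl32l and Rpl26 had too few reads to test.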
